A study of Mus musculus with 656 samples.

Results

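Ramp3, Mertk, Megf9, Grhl1, Cd209c and Rnf225 are 6 of the 22070 genes counted in mouse 3T3 fibroblasts, an embryo-derived cell line, that were treated with the kinase inhibitor SC-514 and then stimulated with IL-1b or TNF-a. They were taken from the count table by their Ensembl identifiers, from a list of symbols selected on their counts at 100 against 0 µM SC-514, where they differed widely. Those differences are therefore given here as a description, with no test. Tests are kept for the 25 and 50 µM libraries and for the unstimulated libraries, on which the choice did not rest.

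The study sequenced the 3′ ends of polyadenylated RNA in 41 groups of 4 libraries each. Cells had been given 0, 25, 50 or 100 µM SC-514 for 1 h, and then 1 ng/ml IL-1b or 10 ng/ml TNF-a for 15, 30, 60, 120 or 360 min, which makes 20 groups for each stimulus. The remaining group, called unstimulated here, received neither inhibitor nor stimulus. No group received SC-514 without a stimulus, so the inhibitor's own action cannot be told apart from its action on stimulated cells. The vehicle of the 0 µM groups is not stated in the labels. All groups are of the same cell line. No label states whether replicate libraries were grown as independent cultures. A p-value here sets a difference against the spread between libraries, estimated over all groups, and that spread may be technical.

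SC-514 blocks IKKβ, the kinase that marks the inhibitor IκBα for destruction and so frees the transcription factor NF-κB to enter the nucleus. IL-1b and TNF-a each switch this kinase on through their own receptor, and NF-κB then raises genes for chemokines, cytokines and its own inhibitors. Ramp3 encodes a membrane protein that pairs with the calcitonin-family receptors and lets them bind adrenomedullin or amylin. Mertk encodes a receptor tyrosine kinase of the TAM family, which binds Gas6 and protein S and is best known for the uptake of dying cells by macrophages. Megf9 encodes a membrane protein with EGF-like repeats, Cd209c a C-type lectin of the mouse DC-SIGN cluster, Grhl1 a grainyhead transcription factor known from the epidermis, and Rnf225 a protein with a RING finger domain, a fold found in many ubiquitin ligases.

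The genes are placed on GRCm38 by GENCODE release M21. Ramp3 is ENSMUSG00000041046 at chr11:6658521-6677475 on the plus strand. Mertk is ENSMUSG00000014361 at chr2:128698956-128802894 on the plus strand. Megf9 is ENSMUSG00000039270 at chr4:70427065-70534995 on the minus strand. Grhl1 is ENSMUSG00000020656 at chr12:24572283-24617391 on the plus strand. Cd209c is ENSMUSG00000040165 at chr8:3940222-3954746 on the minus strand. Rnf225 is ENSMUSG00000033967 at chr7:12927416-12931072 on the plus strand.

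The RefSeq promoter table of build GRCm38.p6 held all 6 genes, with 7 windows between them, and the 250 bases before the start were searched. Ramp3 was the 1 member lower at 100 µM at every time of both stimuli, and Mertk and Grhl1 were higher there. The windows of these genes are shown for comparison. They lie on the plus strand at chr11:6658283-6658532, chr2:128698665-128698914 and, for the first of its starts in the table, chr12:24572037-24572286. Capitals mark matches, on either strand, to an NF-κB-type motif or to GCGTG, the core of the site bound by the aryl hydrocarbon receptor.
Ramp3: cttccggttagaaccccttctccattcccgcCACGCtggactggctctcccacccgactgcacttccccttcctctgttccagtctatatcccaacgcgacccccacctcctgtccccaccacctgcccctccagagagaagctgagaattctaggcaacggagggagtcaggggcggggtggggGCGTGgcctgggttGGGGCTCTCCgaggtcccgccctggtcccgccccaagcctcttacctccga
Mertk: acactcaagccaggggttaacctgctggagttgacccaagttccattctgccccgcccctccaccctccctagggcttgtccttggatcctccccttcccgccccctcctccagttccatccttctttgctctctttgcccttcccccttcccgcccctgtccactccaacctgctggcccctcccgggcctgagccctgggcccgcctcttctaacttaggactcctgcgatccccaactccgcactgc
Grhl1: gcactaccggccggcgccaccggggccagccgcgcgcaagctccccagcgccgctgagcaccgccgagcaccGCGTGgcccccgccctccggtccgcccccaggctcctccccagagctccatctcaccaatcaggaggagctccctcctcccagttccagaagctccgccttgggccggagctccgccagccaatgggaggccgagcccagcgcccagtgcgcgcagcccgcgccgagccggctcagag

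The NF-κB-type motif was GGG, a purine, any 2 bases, 2 pyrimidines and CC. The Ramp3 window held it as GGGGCTCTCC, 51 to 42 bases before the start, and the other members' windows did not hold those letters; 7.25% of all 32851 windows of this length did. GCGTG was in the Ramp3 window on both strands (65 to 61 and 219 to 215 bases before the start) and in the Grhl1 window (178 to 174 bases before the start), and in 28.2% of all windows. TGANTCA, the AP-1 motif, and TGACGTCA, the CREB motif, were in none of the members' windows and in 6.75% and 1.55% of all windows. A match is a string of letters and not a measured binding site.

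Library totals ran from 928906 to 2469454 counts (median 1282459), except in 2 shallow libraries. These were library 1 of the IL-1b group at 50 µM and 30 min, with 12191 counts, and library 1 of the TNF-a group at 50 µM and 120 min, with 3839. Both were kept in the fit and left out of counts of overlap. In the other libraries 3 counts correspond to 1.21 to 3.23 CPM (a gene's counts for each 1000000 counts of the library), the unit of all levels here. For the 3 rarest members, Grhl1, Cd209c and Rnf225, and for Mertk at 0 µM, many values stand for a few counts. A 0 means only that no count was drawn. The letters that begin a library's name stand for 1 stimulus in the sample titles and for the other in the columns of the count table. The stimulus stated in the sample records was followed, and groups are called IL-1b or TNF-a by it. The libraries of the 2 stimuli form separate sets, so that set and stimulus cannot be told apart. Library 4 of the IL-1b group at 25 µM and 30 min stood apart from its group. Across 9540 genes its deviations correlated with those of its own group at r = 0.0457 and with those of the IL-1b group at 0 µM and 15 min at r = 0.445. That gap of 0.399 compares with 0.161 for the next largest of 162 libraries. Library 1 of the IL-1b groups at 100 µM differed in another way, with counts in 14634 genes at 120 min and 15303 at 360 min, while the other 3 libraries of those groups had counts in 13198 to 13350 and 13170 to 13529 genes. They are called the 2 gene-rich libraries here, and values that rest on them are given with and without them. The cells carried all 10 fibroblast markers listed, with a summed level of 5985 to 9494 CPM in the 100 µM libraries, 6792 to 8895 CPM in the 0 µM libraries and 8269 to 8472 CPM in unstimulated ones. The 10 macrophage and dendritic markers, listed because Mertk and Cd209c are best known from those cells, summed to 11.3 to 43.3 CPM at 100 µM, 27.3 to 52.2 CPM at 0 µM and 32.3 to 43.0 CPM in unstimulated libraries.

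Ramp3 had the highest counts of the 6 genes, and its mean was lower in each inhibited group than at 0 µM of the same time and stimulus. After 360 min of IL-1b, Ramp3 stood at 14.1, 13.99, 19.02 and 14.1 CPM in the 4 libraries with 100 µM SC-514 and at 121, 129, 150.4 and 152 CPM in those with 0 µM. After 360 min of TNF-a it stood at 8.12, 10.5, 26.1 and 24.2 CPM with 100 µM and at 136, 172, 234 and 182 CPM with 0 µM, while unstimulated libraries held 94.8, 88.5, 98.8 and 108 CPM. Every 100 µM library lay below every 0 µM library at that time, and the same held at all 5 times of both stimuli, 10 of 10 pairs of groups. Of the 10766 genes tested, 1.37% were below in all 10 pairs. The level at 100 µM hardly moved with time: group means ran from 12.2 to 17.8 CPM under IL-1b and from 14.2 to 18.4 CPM under TNF-a. The log2 change of 100 against 0 µM at 15, 30, 60, 120 and 360 min was -3.28 ± 0.29, -3.50 ± 0.32, -2.96 ± 0.29, -3.31 ± 0.30 and -3.24 ± 0.30 (SE) under IL-1b. Under TNF-a it was -2.72 ± 0.29, -2.96 ± 0.31, -2.53 ± 0.29, -3.19 ± 0.26 and -3.51 ± 0.26. Ranked from the most negative change of all genes tested, Ramp3 stood between place 4 and place 37 in these 10 comparisons.

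The lower concentrations separated the early times from the later ones. At 15 min of IL-1b Ramp3 averaged 143 ± 11.8, 20.5 ± 5.61, 15.3 ± 1.498 and 15.3 ± 2.404 CPM with 0, 25, 50 and 100 µM (SD, n = 4 each). At 15 min of TNF-a the averages were 113 ± 50.8, 17.7 ± 6.37, 19.4 ± 4.26 and 17.9 ± 4.97 CPM. At that time the 25, 50 and 100 µM libraries overlapped. At 360 min the concentrations stood in steps. With 50 µM the IL-1b libraries held 35.9, 46.1, 41.7 and 29.8 CPM, and with 25 µM they held 58.98, 74.5, 73.05 and 62.6 CPM. With 50 µM the TNF-a libraries held 42.7, 31.1, 79.1 and 62.6 CPM, and with 25 µM they held 85.5, 68.7, 124 and 133 CPM. Under IL-1b the 4 concentrations did not overlap at 360 min. Under TNF-a the 50 and 25 µM libraries overlapped and the others did not. Over all times, every library lay below every 0 µM library of its pair in 10 of 10 pairs at 50 µM, as for 0.752% of all genes. At 25 µM this held in 9 of 10 pairs, and 0.399% of genes reached 9 or more. The exception was the pair with the library that stood apart, which held 119.9 CPM of Ramp3 beside 19.3, 18.6 and 17.4 CPM in the other 3 libraries.

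**Figure D1:**
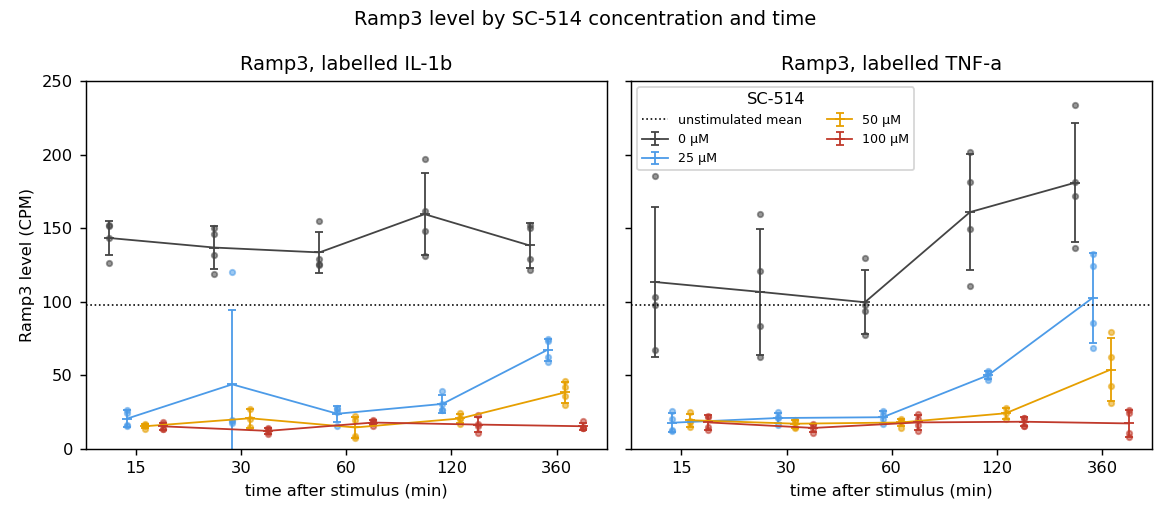
Ramp3 level in CPM (linear axis from 0) against time after the stimulus, with IL-1b on the left and TNF-a on the right; points are libraries, lines join group means without the 2 shallow libraries, bars are SD over the libraries and the dotted line is the unstimulated mean of 97.5 CPM. The 100 µM means stay between 12.2 and 18.4 CPM at all times, while the 25 µM means reach 67.3 CPM under IL-1b and 103 CPM under TNF-a at 360 min; the single high 25 µM point at 30 min of IL-1b is the library that stood apart.

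The step between 50 and 25 µM, which did not enter the choice of the genes, was tested over the 5 times together with edgeR's quasi-likelihood F test and Benjamini-Hochberg adjustment over all 10766 genes. Ramp3 was lower at 50 than at 25 µM under IL-1b (mean log2 difference -0.72, adjusted p = 0.0149) and under TNF-a (-0.52, adjusted p = 0.00427), and it was the only 1 of the 6 members called at this step. Of all genes 3.79% were called under IL-1b and 3.62% under TNF-a. The IL-1b call was lost when library 4 of every group was left out, with an adjusted p of 0.419. Without the library that stood apart the mean IL-1b difference was -0.48 (adjusted p = 0.0257). The TNF-a call was lost when library 2 of every group was left out, with an adjusted p of 0.132. By single times, the difference passed the test at 360 min of TNF-a (-1.01 ± 0.24, adjusted p = 0.0216), where 0.362% of genes did. It was -0.80 ± 0.27 at 360 min of IL-1b (adjusted p = 0.162) and -1.11 ± 0.34 at 120 min of TNF-a (adjusted p = 0.0881). At 15 min it was -0.43 ± 0.41 under IL-1b and 0.12 ± 0.41 under TNF-a, with 95% intervals of -1.23 to 0.37 and -0.69 to 0.93.

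Against unstimulated cells, which had no inhibitor, Ramp3 was lower at both concentrations and under both stimuli. Such a comparison joins stimulus, inhibitor and library set, which cannot be told apart. The mean log2 difference was -1.50 at 25 µM and -2.23 at 50 µM under IL-1b (adjusted p = 5.38e-13 and 2.77e-16), and -1.51 and -2.03 under TNF-a (adjusted p = 9.94e-19 and 6.37e-16; edgeR F tests). These comparisons called 35.8%, 36.9%, 30.1% and 30.9% of all genes. By single times the fall passed the test at all 5 times with 50 µM and at 15 to 120 min with 25 µM under either stimulus, 18 of 20 tests. At 15, 30, 60, 120 and 360 min these tests called 12.7, 8.47, 15.3, 19.3 and 21.6% of all genes with 25 µM and 14.9, 13.7, 17.2, 20.1 and 25.0% with 50 µM under IL-1b. Under TNF-a they called 9.36, 12.1, 14.9, 20.1 and 7.66% with 25 µM and 14.7, 16.3, 19.8, 19.4 and 11.6% with 50 µM. Its lowest value was -2.73 ± 0.32 at 60 min of IL-1b with 50 µM (adjusted p = 5.30e-12). At 360 min with 25 µM, Ramp3 was -0.50 ± 0.23 from unstimulated under IL-1b (adjusted p = 0.125) and 0.10 ± 0.23 under TNF-a (adjusted p = 0.842), with 95% intervals of -0.96 to -0.04 and -0.34 to 0.54.

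Ramp3 changed with time at both lower concentrations. From 15 to 360 min Ramp3 rose by 1.75 on the log2 scale with 25 µM and 1.37 with 50 µM under IL-1b (adjusted p = 6.33e-07 and 0.00366), and by 2.56 and 1.43 under TNF-a (adjusted p = 1.56e-15 and 2.58e-05; edgeR F tests over the 5 times). Of all genes, 26.7%, 25.0%, 21.9% and 18.4% were called for time in those 4 series. Under IL-1b the 25 µM call was lost when the 5 groups were fitted alone (adjusted p = 0.0684) and the 50 µM call when library 2 of every group was left out (adjusted p = 0.0639). Between the stimuli, the F test over the 5 times, which asks for any difference at 25 µM, was called (IL-1b against TNF-a, adjusted p = 0.012, where 11.7% of genes were called). No single time passed, with a lowest adjusted p of 0.0792. The mean log2 difference was 0.01, and it was -0.25 (adjusted p = 0.0272) without the library that stood apart, and the call was lost without library 4 of every group (adjusted p = 0.48). At 120 min with 25 µM the means were 30.5 ± 6.05 CPM under IL-1b and 49.9 ± 2.74 CPM under TNF-a, and at 360 min 67.3 ± 7.67 and 103 ± 30.6 CPM. Without inhibitor, the group means of Ramp3 at 0 µM lay above the unstimulated mean of 97.5 ± 8.16 CPM at every time of both stimuli. The lowest, under TNF-a, was only 99.6 CPM, and single TNF-a libraries at 15 to 60 min went down to 62.5 CPM. The highest mean was 181 ± 40.3 CPM, at 360 min of TNF-a. The difference of that group from unstimulated, 0.94 ± 0.22 on the log2 scale, has no test, since the 0 µM libraries entered the choice.

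Mertk was higher with inhibitor at the early times. At 15 to 120 min of IL-1b its group means were 0.909 to 2.06 CPM with 0 µM, 5.499 to 6.05 CPM with 25 µM, 5.996 to 7.54 CPM with 50 µM and 4.93 to 10.1 CPM with 100 µM. At 15 to 120 min of TNF-a they were 2.1 to 2.93, 5.39 to 5.66, 3.61 to 7.12 and 4.85 to 7.72 CPM with 0, 25, 50 and 100 µM, without the 2 shallow libraries. Unstimulated libraries held 2.96, 2.55, 4.22 and 4.797 CPM, and their mean of 3.63 ± 1.05 CPM lay above each of these 0 µM means and below each of the early inhibited means except 3.61 ± 2.27 CPM at 50 µM and 120 min of TNF-a (n = 3). At 30 min of IL-1b the 100 µM libraries held 6.57, 13.1, 10.8 and 10.1 CPM and the 0 µM libraries 2.17, 0, 0.762 and 0.7096 CPM, with no overlap, a log2 change of 3.32 ± 0.55 that was second from the top among all genes tested. At 30 min of TNF-a the 100 µM libraries held 9.37, 10.0, 5.603 and 5.803 CPM and the 0 µM libraries 3.05, 4.14, 0.822 and 0.739 CPM, a change of 1.76 ± 0.48. Over the 10 pairs of groups the 100 µM libraries all lay above the 0 µM libraries in 5, and 9.91% of all genes were above in 5 or more.

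By 360 min the group means of Mertk were at most 2.12 CPM at every concentration. The 360 min libraries of IL-1b held 2.33, 0, 0.792 and 2.37 CPM with 0 µM, 2.01, 0.731, 0 and 1.26 CPM with 25 µM, 0.798, 0, 0.786 and 0.853 CPM with 50 µM and 4.42, 0.875, 0 and 1.89 CPM with 100 µM, all overlapping; the 4.42 CPM is from a gene-rich library. Under TNF-a they held 0.784, 0.9704, 0.928 and 0 CPM with 0 µM, 2.57, 3.76, 0.714 and 1.42 CPM with 25 µM, 1.91, 2.83, 2.42 and 0.745 CPM with 50 µM and 1.08, 1.57, 1.06 and 2.47 CPM with 100 µM. There the 100 µM libraries all lay above the 0 µM libraries, from 12 and 3 counts, with a ratio of 2.34 (95% counting interval 0.632 to 12.9), while the 25 and 50 µM libraries overlapped with them. Within the 50 µM libraries, the level at 360 min was -3.12 ± 0.67 log2 units from that at 15 min under IL-1b and -1.49 ± 0.52 under TNF-a, and the time course was called in both (adjusted p = 3.58e-05 and 0.0275; edgeR F tests). With 25 µM the difference was -2.32 ± 0.57 under IL-1b, called with an adjusted p of 0.00102, and -1.43 ± 0.53 under TNF-a, not called (adjusted p = 0.0908). Against unstimulated cells, Mertk fell at 360 min of IL-1b with 25 µM (-1.70 ± 0.64, adjusted p = 0.0413) and with 50 µM (-2.41 ± 0.74, adjusted p = 0.00882; edgeR quasi-likelihood tests). The F test over the 5 times was called against unstimulated for IL-1b at 25 and 50 µM and for TNF-a at 50 µM (adjusted p = 0.00125, 3.35e-05 and 0.0267), with mean differences of 0.19, 0.18 and 0.22; under IL-1b the differences were above 0 at 15 to 120 min and below 0 at 360 min. No early difference from unstimulated passed the test by itself. At 50 µM of TNF-a the time call was lost when library 1, 3 or 4 of every group was left out (highest adjusted p = 0.259) and the call against unstimulated when any 1 of the 4 was (highest adjusted p = 0.2). The 50 against 25 µM step was -0.01 under IL-1b and -0.13 under TNF-a (adjusted p = 0.991 and 0.954), and no difference between 25 and 50 µM was detectable at this depth. The library that stood apart held 0.827 CPM of Mertk, beside 8.93, 8.08 and 4.96 CPM in the others of its group. Mertk overlaps an antisense gene and a small nucleolar RNA gene in the annotation, neither of which is a row of the table.

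Megf9 differed most at the last time. At 360 min of IL-1b the 100 µM libraries held 24.7, 13.1, 14.9 and 14.1 CPM and the 0 µM libraries 6.22, 6.91, 7.12 and 7.097 CPM. At 360 min of TNF-a the 100 µM libraries held 13, 13.6, 20.2 and 15.3 CPM and the 0 µM libraries 1.57, 1.94, 4.64 and 3.65 CPM. Neither pair overlapped, and the log2 change was 1.19 ± 0.31 under IL-1b and 2.25 ± 0.37 under TNF-a. Without the gene-rich library, at 24.7 CPM, the IL-1b change was 0.95 ± 0.33. The larger change under TNF-a went with a lower level at 0 µM, where the TNF-a mean at 360 min was 2.95 ± 1.45 CPM, against an unstimulated mean of 7.78 ± 1.86 CPM. At 15 to 120 min the 100 µM means were 9.24 to 11.03 CPM under IL-1b and 9.06 to 12.01 CPM under TNF-a, and the 0 µM means 4.87 to 6.98 and 4.68 to 8.57 CPM. The top of the first range, at 120 min, rests on the gene-rich library at 23.8 CPM: the other 3 libraries had a mean of 6.77 ± 2.25 CPM and overlapped with 0 µM, with a log2 change of 0.43 ± 0.42. No test on the libraries outside the choice was called for Megf9: the 50 against 25 µM step was -0.04 and 0.11 under IL-1b and TNF-a (adjusted p = 0.322 and 0.973), and the time courses had adjusted p-values of 0.124, 0.271, 0.97 and 0.539 (edgeR F tests). At 360 min of TNF-a the means stood in order of concentration, at 2.95 ± 1.45, 7.31 ± 3.65, 10.2 ± 3.78 and 15.6 ± 3.28 CPM for 0, 25, 50 and 100 µM. At 360 min of IL-1b they did not, with means of 6.84, 6.68, 6.98 and 16.7 CPM for the same concentrations.

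Cd209c stood higher at 100 µM and at a few counts per library elsewhere. At 360 min the 100 µM libraries held 13.2, 11.4, 5.79 and 5.66 CPM under IL-1b and 10.3, 4.195, 16.5 and 7.92 CPM under TNF-a. The 0 µM libraries of the same time held 0.778, 1.54, 0.792 and 1.58 CPM under IL-1b and 1.57, 0, 0.928 and 1.83 CPM under TNF-a, and unstimulated libraries 2.22, 2.55, 0.844 and 2.399 CPM. Pooled over the libraries of a group, the ratio of 100 to 0 µM at 360 min was 7.695 (95% counting interval 3.25 to 22.2) under IL-1b, from 41 and 6 counts, and 8.66 (95% counting interval 3.55 to 27.5) under TNF-a, from 74 and 5 counts. The 13.2 CPM is from a gene-rich library, without which the IL-1b ratio was 6.498 (95% counting interval 2.62 to 19.3), from 26 and 6 counts. These intervals cover counting error and not the spread between libraries. In 8 of 10 pairs of groups every 100 µM library lay above every 0 µM library, and 2.89% of all genes were above in 8 or more. At 25 and 50 µM the group means over all times were 0.7495 to 2.42 and 0.593 to 3.62 CPM under IL-1b and 0.5796 to 1.91 and 1.403 to 2.17 CPM under TNF-a, and the unstimulated mean was 2.004 ± 0.785 CPM. No test on those libraries was called; the smallest adjusted p was 0.108 (edgeR F test). Of the defining markers of macrophages and dendritic cells, 3 of the 10 passed the filter on low counts, and their summed levels are given above. Cd14 was the 1 of them called at 100 against 0 µM, with mean log2 changes of -1.73 under IL-1b and -1.47 under TNF-a, while Lyz2 (0.46 and 0.15) and Cd68 (0.02 and -0.32) were not called; their part in the Cd209c level was not tested.

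Grhl1 was at a few counts per group without inhibitor, and at each of the 4 times up to 120 min and under both stimuli its mean stood in the order 0, 25, 50 and 100 µM, low to high, without the 2 shallow libraries. At 30 min of IL-1b that order held only with the library that stood apart: without it the means were 1.715 ± 0.825 CPM at 50 µM and 1.89 ± 1.30 CPM at 25 µM (SD, n = 3 each). At 120 min of IL-1b the 100 µM libraries held 4.14, 6.49, 5.38 and 12.5 CPM, and no count was drawn in the 4 libraries with 0 µM. At 120 min of TNF-a the 100 µM libraries held 6.11, 7.23, 9.31 and 6.15 CPM and the 0 µM libraries 1.39, 0, 0 and 0 CPM, while unstimulated libraries held 1.48, 0, 0 and 0.7996 CPM, 3 counts in all. Set against 3 counts over the group, the level at 120 min of IL-1b was at least 14.2-fold higher with 100 µM than with 0 µM. For TNF-a at 15, 30 and 120 min the ratio of pooled levels was 28.7 (95% counting interval 4.84 to 1165), 15.4 (95% counting interval 3.903 to 133) and 18.1 (95% counting interval 4.77 to 153), from 36 and 1 counts, 30 and 2 counts and 55 and 2 counts. In 7 of 10 pairs of groups every 100 µM library lay above every 0 µM library, and 4.58% of all genes were above in 7 or more. At 120 min of TNF-a the means were 0.348 ± 0.697, 3.09 ± 2.15, 3.94 ± 2.17 and 7.201 ± 1.5 CPM for 0, 25, 50 and 100 µM (n = 4, 4, 3 without the shallow library, and 4). By 360 min the 100 µM libraries were down to 0.883, 0.875, 2.48 and 0.942 CPM under IL-1b and 1.08, 1.57, 1.06 and 0.495 CPM under TNF-a, overlapping with the 0 µM libraries of TNF-a and just above those of IL-1b.

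Grhl1 passed the filter on low counts through its 100 µM libraries alone, so its tests at the lower concentrations are given as values and carry no weight as support. Against unstimulated cells, the mean log2 difference over the 5 times was 1.75 at 50 µM of IL-1b (adjusted p = 0.0289) and 0.86 at 25 µM of TNF-a (adjusted p = 0.0485; edgeR F tests). With 25 µM of IL-1b it was 1.21 (adjusted p = 0.483) and with 50 µM of TNF-a 1.53 (adjusted p = 0.0554). The single times that passed were 15 and 60 min of IL-1b with 50 µM (2.24 ± 0.80 and 2.48 ± 0.78, adjusted p = 0.0426 and 0.0154) and 120 min of TNF-a with 25 and 50 µM (2.24 ± 0.84 and 2.54 ± 0.79, adjusted p = 0.0424 and 0.0122; edgeR quasi-likelihood tests). These fitted changes rest on 3 unstimulated counts and depend on the fit's prior count. The F test call at 50 µM of IL-1b was lost when library 1, 2 or 3 of every group was left out (highest adjusted p = 0.238), that at 25 µM of TNF-a in 10 of 12 alternatives, among them leaving out the 2 shallow libraries, the library that stood apart or the 2 gene-rich libraries, and the step between 50 and 25 µM was not called (adjusted p = 0.751 under IL-1b and 0.889 under TNF-a).

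Rnf225 showed the sharpest difference between the stimuli. At 360 min of IL-1b with 100 µM the libraries held 29.1, 21.9, 23.98 and 38.6 CPM, and at 360 min of TNF-a with 100 µM they held 1.62, 2.62, 0.533 and 2.47 CPM. Without inhibitor the 360 min libraries held 2.33, 3.84, 2.38 and 2.37 CPM under IL-1b and 3.13, 1.94, 1.86 and 3.65 CPM under TNF-a, and unstimulated libraries held 2.22, 0.851, 1.69 and 3.198 CPM. The 100 µM libraries of IL-1b stood clear of all other groups at that time, and the log2 change of 100 against 0 µM was 3.24 ± 0.37 under IL-1b and -0.66 ± 0.58 under TNF-a. Pooled over libraries, the IL-1b ratio was 10.3 (95% counting interval 5.92 to 19.4), from 128 and 14 counts. The level at 100 µM of IL-1b was 1.14 ± 1.32, 1.4 ± 1.18, 2.34 ± 0.672, 8.25 ± 5.76 and 28.4 ± 7.48 CPM at 15, 30, 60, 120 and 360 min, and the 120 min libraries, at 16.6, 3.71, 7.54 and 5.204 CPM, still overlapped with 0 µM (2.67, 4.57, 2.82 and 3.27 CPM). The 16.6 CPM is from a gene-rich library, without which the 120 min mean was 5.48 ± 1.93 CPM. At 360 min the mean without the gene-rich library was 28.2 ± 9.14 CPM and the log2 change 3.23 ± 0.37.

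Rnf225 too passed the filter through its 100 µM libraries alone. The tests that follow are given as values on a few counts for each library and carry no weight as support. At 360 min with 50 µM, Rnf225 was at 7.98, 5.76, 3.93 and 5.12 CPM under IL-1b and 1.91, 2.12, 0.807 and 2.24 CPM under TNF-a, with no overlap, and the difference was 1.68 ± 0.51 on the log2 scale (IL-1b against TNF-a, adjusted p = 0.0124, edgeR quasi-likelihood test, where 15.3% of genes were called). Over the 5 times together the stimuli differed by 1.03 at 50 µM (adjusted p = 0.0154, 18.7% of genes called), and Rnf225 was the 1 member called there. That call was lost when library 1, 2 or 4 of every group was left out (highest adjusted p = 0.13). At 25 µM the 360 min difference was 1.55 ± 0.62 (adjusted p = 0.0881). From 15 to 360 min of IL-1b with 25 µM the log2 difference of Rnf225 was 1.67 (adjusted p over the time course = 0.00388, and 0.0648 at the highest without library 3 of every group or with DESeq2, where the call was lost), and at 360 min of IL-1b with 50 µM it exceeded unstimulated cells by 1.50 ± 0.52 (adjusted p = 0.0215; edgeR). Over the 5 times, the F test against unstimulated was called for IL-1b at 25 and 50 µM (mean -0.25 and 0.48, adjusted p = 0.0064 and 0.0476); the first was lost without library 2 or 3 of every group and the second in 10 of 12 alternatives. Under TNF-a the group means stayed between 0.643 and 2.65 CPM at all concentrations and times. A small nuclear RNA gene that is not a row of the table overlaps Rnf225 in the annotation.

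**Figure D2:**
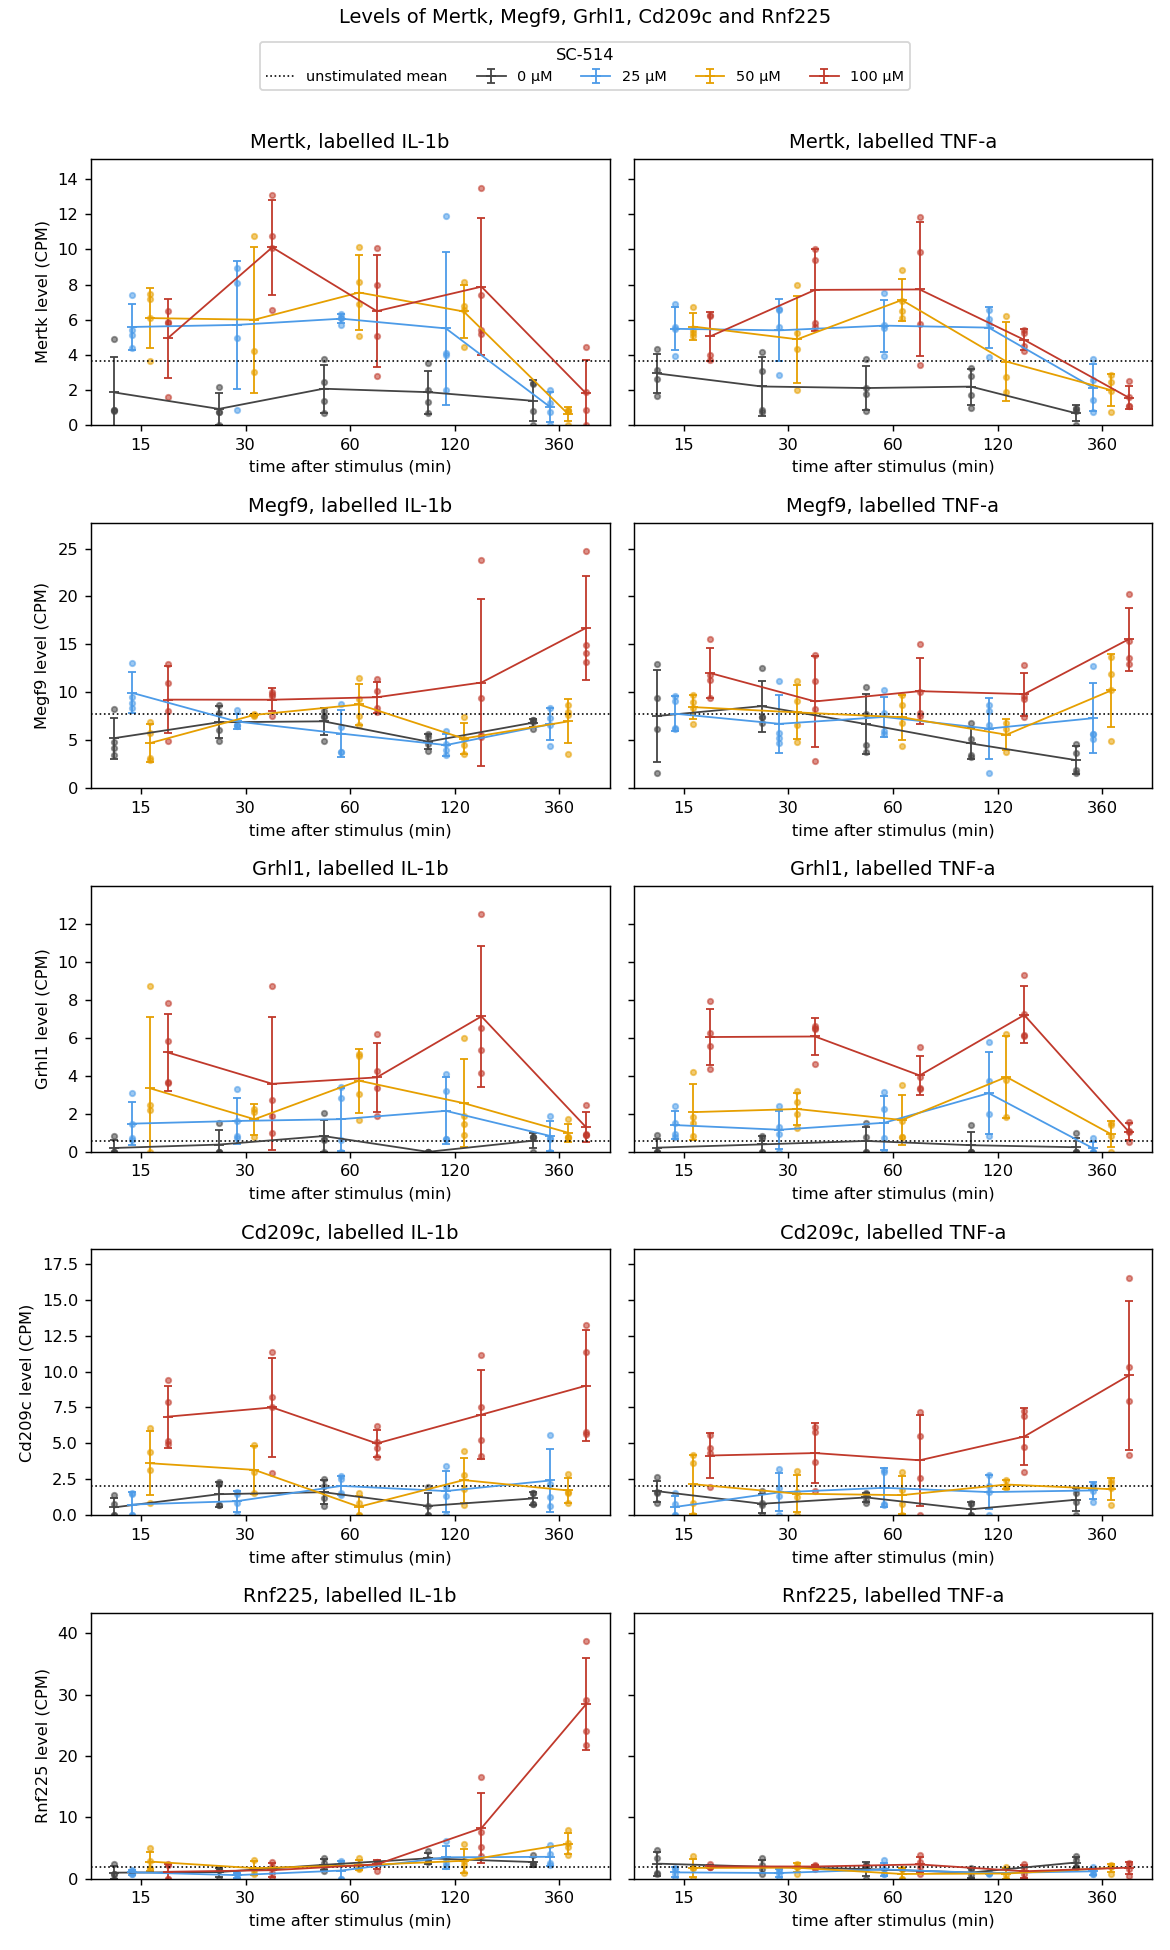
Levels in CPM (linear axes from 0) of Mertk, Megf9, Grhl1, Cd209c and Rnf225, top to bottom, against time after the stimulus, with IL-1b on the left and TNF-a on the right; points are libraries, lines join group means without the 2 shallow libraries, bars are SD and dotted lines the unstimulated means. Mertk at 15 to 120 min lies above its 0 µM level at all 3 inhibitor concentrations. Grhl1 stands highest at 100 µM up to 120 min, and Cd209c does so at all times. Rnf225 leaves its base level at 100 µM of IL-1b with 28.4 ± 7.48 CPM at 360 min, while the TNF-a group of that time has 1.81 ± 0.9603 CPM.

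Each member had 12 F tests on the 25 µM, 50 µM and unstimulated libraries, and a gene had 2.64 calls among them on average over all genes tested. Ramp3 was called in 11 of the 12 and Mertk in 6, where 1.17% of genes had 11 or more and 19.5% had 6 or more. Rnf225 was called in 4 and Grhl1 in 2, where 32.3% of genes had 4 or more and 51.8% had 2 or more, and Megf9 and Cd209c were called in none. Of these 23 calls, 8 were kept in every alternative run, 6 of Ramp3 and 2 of Mertk. All 6 genes passed the filter on low counts, but Grhl1, Cd209c and Rnf225 passed it only through their 100 µM libraries, so that at the lower concentrations their tests work on a few counts for each library. Total counts over all libraries were 11790 for Ramp3, 1711 for Megf9, 913 for Mertk, 601 for Cd209c, 559 for Rnf225 and 465 for Grhl1. Libraries at 0 numbered 2, 2, 8, 24, 19 and 38 in the same order.

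**Figure D3:**
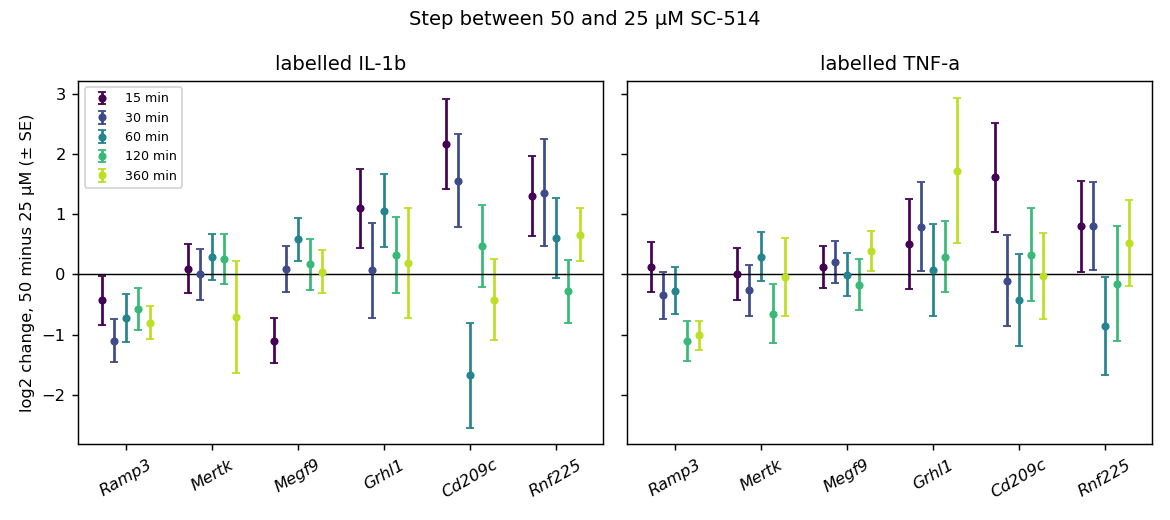
Log2 difference of 50 minus 25 µM SC-514 for each member at each of 5 times, with IL-1b on the left and TNF-a on the right; points are fitted differences, bars are SE and colours are times. The Ramp3 points lie at or below 0 in 9 of 10 cases, and those of 120 and 360 min of TNF-a are at -1.11 ± 0.34 and -1.01 ± 0.24; the bars of Grhl1, Cd209c and Rnf225 rest on low counts and are long.

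The genes most like each member over the 41 groups were found by Pearson's correlation of log2 CPM of counts pooled by group, as a description. Within a group all genes share the same library totals. Ramp3 was most like Gsto1 (r = 0.967), a glutathione transferase gene, Spp1 (0.962), which encodes osteopontin, and Nmnat2 (0.95), an enzyme of NAD synthesis. Gsto1 was also first for Ramp3 over the 21 groups without 0 or 100 µM libraries (r = 0.927). Mertk was most like Ptn (0.941), a secreted growth factor, Tom1 (0.913) and Aff3 (0.912), and Grhl1 was most like Hist1h1c (0.913) and H3f3b (0.906), which encode histones, and Baiap2 (0.899). Cd209c was most like Mknk2 (0.886), Sgcb (0.822) and Herpud2 (0.814). Megf9 and Rnf225 had no neighbour above 0.784: their nearest were Hltf (0.749), Cyhr1 (0.747) and Iqsec2 (0.726) for Megf9 and Swt1 (0.784), Zfp953 (0.75) and Bicd1 (0.749) for Rnf225. These 3 rested on the 2 gene-rich libraries: without them r with Rnf225 was 0.493, -0.0968 and 0.163, and Emc6 came first (0.704). For Megf9 Mavs then came first (0.744), with Cyhr1 second (0.724), and the first gene of the other 4 members was the same as before. For Mertk, Megf9, Grhl1, Cd209c and Rnf225 the first gene over the 21 groups was another one: Plin3 (0.956), Pik3c3 (0.848), Rbm33 (0.872), Patj (0.755) and Ankrd27 (0.82). Among the members, over the 21 groups outside the choice, r was -0.654 between Ramp3 and Mertk, -0.637 between Ramp3 and Grhl1 and 0.587 between Mertk and Grhl1. Over all 41 groups, where the choice itself bears on the signs, r was -0.724, -0.772 and 0.716. Several other pairs did not keep their values. Between Megf9 and Cd209c r was 0.61 over the 41 groups and -0.564 over the 21. Between Megf9 and Grhl1 it was 0.342 and -0.407, and between Megf9 and Rnf225 0.307 and -0.296. Ramp3 had -0.5 and 0.0667 with Megf9 and -0.585 and 0.113 with Cd209c. Grhl1 and Cd209c had 0.59 and 0.0553, while Cd209c and Rnf225 had 0.399 and 0.373.

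Among relatives and partners of the members, Ackr3, Itgb3 and Megf10 fell and Megf6 rose by more than 1 log2 unit under both stimuli. Clec4e also fell by more than 1 log2 unit under both, from medians of only 0.688 CPM at 0 µM of IL-1b and 2.34 CPM at 0 µM of TNF-a. Lists of related genes, without the members, were read at 100 against 0 µM with the F test over the 5 times, which called 55.3% of all genes under IL-1b and 50.3% under TNF-a. A called gene counts as risen or fallen by the sign of its mean change, and the median over all genes was 0.03 under IL-1b and 0.02 under TNF-a. Of the calcitonin receptor and RAMP list, 5 of 12 genes were measured well enough to test, 4 fell and none rose under IL-1b and 3 fell under TNF-a, with a median of -0.85 and -0.67. Ackr3, a scavenger receptor that binds adrenomedullin, fell by 1.45 under IL-1b (adjusted p = 6.45e-26) and 1.69 under TNF-a (adjusted p = 3.57e-38; edgeR), and Adm, the gene of adrenomedullin itself, had changes of -0.85 and -0.69 and its relative Adm2 of -0.87 and -0.67. Calcrl, the receptor partner of RAMP proteins, was called under IL-1b with a mean change of -0.01 and not under TNF-a (-0.08). It counts among the 4 under IL-1b by sign alone. Its median levels were 27.8 CPM at 100 µM and 26 CPM at 0 µM of IL-1b. By median over the libraries, Ackr3 stood at 34.7, 23.01, 16.5 and 13.9 CPM at 0, 25, 50 and 100 µM of IL-1b.

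Of the TAM receptor and engulfment list, 15 of 17 genes were tested, 5 rose and 7 fell under IL-1b and 4 rose and 7 fell under TNF-a, with medians of -0.18 and -0.09. Axl, another TAM receptor, changed by -0.43 and -0.30 under IL-1b and TNF-a, and Gas6, a ligand of Axl and Mertk, by 0.37 and 0.33. Lgals3, which encodes galectin-3, changed by -0.19 and -0.32. Itgb3, an integrin subunit, changed by -1.81 and -1.64. Of the MEGF and laminin-type list, 10 of 13 were tested: 1 rose and 6 fell under IL-1b, and 2 rose and 4 fell under TNF-a, with medians of -0.30 and -0.08. The laminin chain gene Lamb1 changed by -0.49 and -0.51, and Lama5 by -0.37 under IL-1b. Megf6 changed by 1.92 and 1.36, and Megf10, an engulfment receptor that is in the TAM list too, by -1.82 and -2.14. The medians of Megf6 were 4.798 CPM at 100 µM and 1.081 CPM at 0 µM of IL-1b. Under TNF-a they were 2.375 and 0.8154 CPM, so its 0 µM values stand for a few counts. Of the grainyhead and CP2 list with its epithelial targets, 4 of 16 were tested; Tfcp2 rose by 0.66 and 0.81, and Ubp1 rose by 0.22 under TNF-a, while Grhl2 and Grhl3 did not pass the filter. Of the C-type lectins, 4 of 16 were tested, none rose and 2 fell under each stimulus: Clec4e, a lectin of macrophages, with -2.11 and -2.54 and a median of 0 CPM at 100 µM, Mrc2, a collagen receptor, with -0.15 under IL-1b, and Clec2d with -0.14 under TNF-a. None of the other Cd209 genes passed the filter. Of the small RING finger genes, 4 of 13 were tested, and Rnf149 fell by 0.57 and 0.36. For comparison, of 16 NF-κB target genes, all tested, 13 fell under each stimulus and 2 rose under IL-1b and 3 under TNF-a, with medians of -0.43 and -0.53. The chemokine gene Cxcl1 fell by 1.52 and 1.61. Nfkbia, which encodes IκBα, was at -0.01 and 0.14, and it counts among the 13 under IL-1b by sign alone. Its median under IL-1b was 681 CPM at 100 µM and 563 CPM at 0 µM. Ramp3 at 100 against 0 µM had changes between -3.51 and -2.53 at single times, set beside these for scale only.

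**Figure D4:**
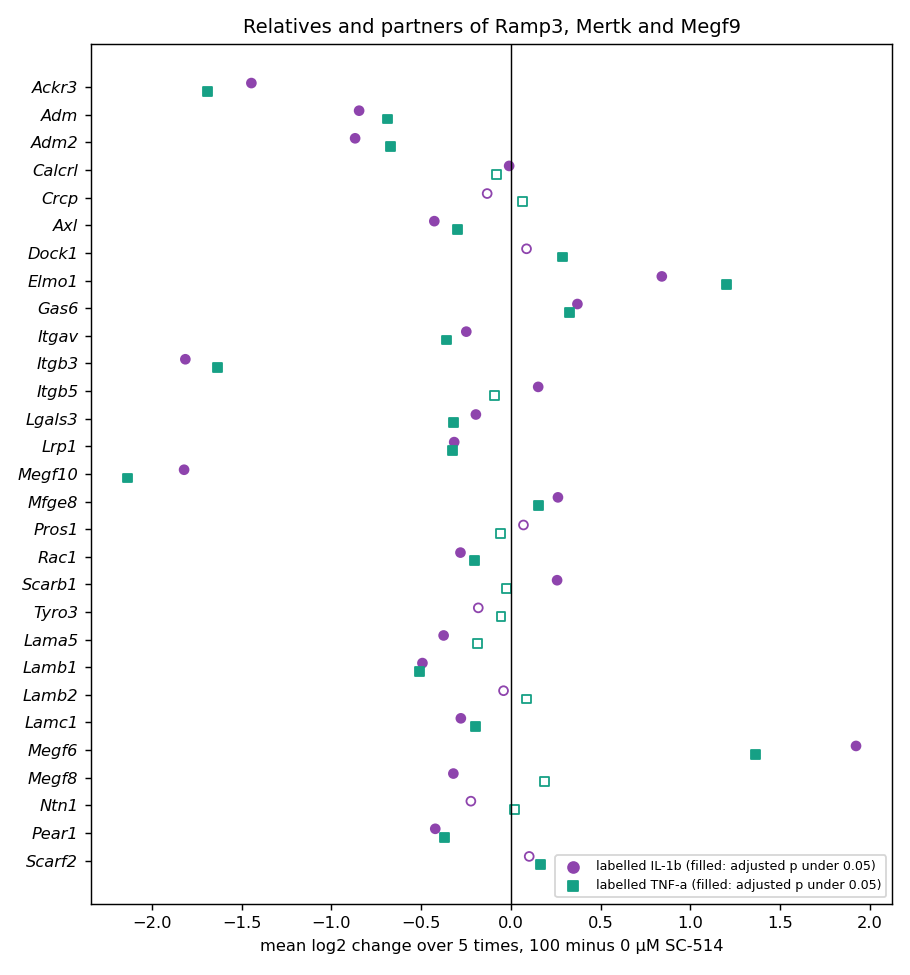
Mean log2 change over the 5 times, 100 minus 0 µM SC-514, of the tested relatives and partners of Ramp3, Mertk and Megf9 (rows, members left out); circles are IL-1b and squares TNF-a, filled where the F test had an adjusted p under 0.05. Ackr3, Itgb3 and Megf10 lie below -1 and Megf6 above 1 under both stimuli, Elmo1 lies above 1 under TNF-a, and the other genes are within 1 log2 unit of 0.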

How the data were processed

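Polyadenylated RNA of mouse 3T3 fibroblasts was sequenced from the 3′ end (TagSeq), per the labels' protocols. The authors deposited a table of raw read counts for 22070 genes and 41 groups of 4 libraries, each with 4 sample records; reads were mapped with Bowtie2 to GRCm38 (mm10), per the submitters' processing notes, and the counting tool, strand setting and annotation are not stated. Without a stated strand setting, reads of overlapping genes on opposite strands cannot be told apart. No 2 libraries of a group were identical (246 pairs). Of the Ensembl identifiers, 21858 matched GENCODE M21 and 212 did not; the 6 members all matched.

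All counts were fitted in 1 model with 41 group means (edgeR 4.0.16 in R 4.3.3: TMM scaling, filterByExpr by group, robust quasi-likelihood F tests, 10766 genes, 123 residual degrees of freedom), with Benjamini-Hochberg adjustment over all genes tested and a threshold of 0.05; "called" means past it. F tests over the 5 times ask for any difference, and the mean change gives the direction. CPM were computed from the deposited counts and library totals without TMM factors. Ratios of pooled counts have exact 95% intervals, which cover counting error only; reads carry no stated molecular identifiers. The fit was also run on simulated counts that gave every gene the same spread. That run did not model the members' own spread, and nothing is drawn from it here.

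The members and the gene lists were chosen with earlier results of these data known. All 6 members are named; for each the 3 genes most like it are named, and from each list at most 4 called genes by smallest p, with Cxcl1 and Nfkbia for comparison; Gas6 and Elmo1, and the markers Cd14, Lyz2 and Cd68, were named after their values were seen. No member missed the filter, so the exact permutation test planned for such members was not needed. Alternatives were DESeq2 1.42.0, RLE scaling, no filter, the groups of a contrast alone, a replicate block, each library number left out and the 2 shallow libraries left out; leaving out the library that stood apart, leaving out the 2 gene-rich libraries, and RLE scaling without the shallow libraries, were added after seeing the data.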

Additional observations from a re-analysis of the deposited data

Results flagged for a closer look

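For each member and each group of 4 libraries, the distance of the highest or lowest library from its nearest neighbour was set against the whole range of the group (Dixon's test at 95%). Of 246 combinations, 25 had a library past the limit; chance alone flags about 1 in 20 groups, and groups with counts of 0, 1 and 2 pass the limit easily. The flagged libraries are given by their level in CPM.

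Ramp3 had 3, all under IL-1b: 119.9 at 25 µM and 30 min in the library that stood apart, whose nearest neighbour held 19.3; 154.6 at 0 µM and 60 min; and 19.0 at 100 µM and 360 min. Mertk had 3, all under IL-1b: 1.57 at 100 µM and 15 min, 0 at 50 µM and 360 min, and 4.90 at 0 µM and 15 min. Megf9 had 6. Under IL-1b they were 24.7 at 100 µM and 360 min, 0 at 50 µM and 30 min in the shallow library, and 8.18 at 25 µM and 30 min. Under TNF-a they were all in library 4, with 11.2 at 25 µM and 30 min, 12.8 at 25 µM and 360 min, and 12.6 at 0 µM and 30 min.

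Grhl1 had 10, most of them resting on 1 to 3 counts. Under IL-1b they were 2.48 at 100 µM and 360 min, 1.71 at 50 µM and 360 min, and at 0 µM 0.811 at 15 min, 1.52 at 30 min and 0 at 360 min. Under TNF-a they were 4.62 at 100 µM and 30 min, 0.709 at 25 µM and 360 min, and at 0 µM 0.880 at 15 min, 1.39 at 120 min and 0.970 at 360 min. Rnf225 had 3, all under IL-1b: 0 at 25 µM and 30 min, and at 0 µM 0 at 30 min and 3.84 at 360 min. Cd209c had none. No cause was tested for any of these values.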

How the results depend on the processing

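Of the 23 member calls, 8 were kept in every alternative: the 4 falls of Ramp3 against unstimulated cells, its time courses under TNF-a, and the Mertk time courses under IL-1b. The numbers of members called moved as follows. Fitting the groups of a contrast alone left 0 called for 50 against 25 µM of IL-1b (1 in the full fit), 0 for IL-1b against TNF-a at 25 µM and 0 at 50 µM (1 each), 2 at 50 µM of IL-1b against unstimulated (4), 1 for each TNF-a concentration against unstimulated (2 each), 1 for time at 25 µM of IL-1b (3) and 1 for time at 50 µM of TNF-a (2); some sparse members then missed the filter. DESeq2, whose Wald test reads the mean change and not any difference over the times, called 1 in each of the 4 comparisons with unstimulated, 0 for IL-1b against TNF-a at 25 µM and 1 for time at 50 µM of TNF-a. At 25 µM of TNF-a against unstimulated, 1 was left without the shallow libraries, without the library that stood apart, without the 2 gene-rich libraries, without a filter, and with RLE scaling with or without the shallow libraries. Leaving out 1 library number gave 0 to 1 called for 50 against 25 µM of either stimulus and for IL-1b against TNF-a at 25 and at 50 µM, 2 to 3 at 50 µM of IL-1b against unstimulated, 1 to 2 at 25 or 50 µM of TNF-a against unstimulated, and 1 to 2 for time at 50 µM of IL-1b or TNF-a.

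Over all genes, leaving out 1 library number gave 118 to 243 calls for 50 against 25 µM of IL-1b (408 in the full fit) and 153 to 231 of TNF-a (390), 780 to 1042 for IL-1b against TNF-a at 25 µM (1255), 1241 to 1564 at 50 µM (2008), and 1560 to 1831 and 1320 to 1558 for time at 25 and 50 µM of TNF-a (2363 and 1982). DESeq2 called 1653 and 2044 genes at 25 and 50 µM of IL-1b against unstimulated (3859 and 3972), 1514 and 1905 of TNF-a (3245 and 3331), 712 for IL-1b against TNF-a at 25 µM, and 1055 and 877 for time at 25 and 50 µM of TNF-a. The counts of the family lists stayed within 1.5 times.

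4 member values changed sign, each close to 0 in the full fit. Mertk against unstimulated ran from -0.0745 to 0.38 (25 µM of IL-1b), -0.01009 to 0.41 (50 µM of IL-1b) and -0.16 to 0.47 (50 µM of TNF-a) over the left-out library numbers, and Ramp3 for IL-1b against TNF-a at 25 µM ran from -0.20 to 0.094 over them and was -0.25 without the library that stood apart. The causes were not tested.

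Library numbers were not taken to pair the samples: every same-numbered pair of 50 and 25 µM libraries correlated above 0.1 at 4 of the 5 times of TNF-a and at none of IL-1b (mean r over all 10 comparisons 0.13, against -0.0432 for other pairs), and nothing in the labels ties equal numbers. With a replicate block, 479 and 435 genes were called for 50 against 25 µM of IL-1b and TNF-a, and the members called in that step were 1 and 1, as without it; the block changed no member count. Depth limits Grhl1, Cd209c and Rnf225 at 0 to 50 µM, where 3 counts are 1.21 CPM or more.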
